A study of Mus musculus with 12 samples.

Results

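The genes described here encode the subunits of the receptors for glutamate and for GABA at the GABA-A receptor. This set of genes was chosen with earlier results of these data known, and its members were taken by gene symbol. Every probe whose gene name in the scanner files begins with Gria, Grik, Grin, Grid, Grm or Gabr and names a subunit was taken. Each was followed by its probe name on all 12 arrays. This gave 45 genes and 66 probes, of 55681 probes that were not controls. They comprised 18 ionotropic glutamate receptor genes, 8 metabotropic glutamate receptor genes and 19 GABA-A receptor genes, and 40 of the 45 had a probe bright enough in the cultures to be tested, among 25540 genes tested in all.

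Glutamate opens AMPA, kainate and NMDA receptors, which are cation channels built from 4 subunits, and also acts on metabotropic receptors coupled to G proteins. GABA opens the GABA-A receptor, a chloride channel commonly built from alpha, beta and gamma subunits. Which subunits a neuron makes changes as the brain matures and differs between brain regions, and subunit choice sets the kinetics, the calcium entry and the drug responses of the receptor.

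The arrays were single-colour Agilent 60-base oligonucleotide arrays. There were 8 arrays of neurons grown from male 129/Ola mouse embryonic stem cells and collected on day 16 of differentiation, 2 in each of 4 groups, and each RNA sample pooled 3 sets of experiments. All 4 groups began in the Wnt inhibitor 53AH at 2.5 μM with the BMP inhibitor LDN193189 at 0.25 μM. In WiBi_0-11 both inhibitors were given until day 11, and in WiBi_0-16 until day 16. CHIR_8-16 received them to day 8 and then the Wnt agonist CHIR, at 3 μM in the protocol, to day 16; CHIR_11-16 received them to day 11 and CHIR from day 11 to day 16, at a dose the labels do not give separately. The step lengths of the written protocol place the first change of medium 1 day before the day 8 of the group name. The other 4 arrays were of cortex, hippocampus, ventral telencephalon and midbrain of Sv129s6 embryos of mixed sex at embryonic day 15 (E15), 1 array each, so that differences between tissues have no replicate check. Nothing in the labels says that the 2 culture replicates came from separate differentiations, so p-values measure the spread between these arrays, which may be technical.

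A level below is the log2 signal of 1 probe minus the log2 of the 75th percentile of that array, so 0 is the brightness of the 75th percentile. A level is comparable between arrays for the same gene and not between genes. Between 59.06% and 71.18% of spots were well above background on the 12 arrays. Replicate 1 of all 4 culture groups was on slide 2 and replicate 2 on slide 3, and the 4 embryo arrays were on slide 1. Between slides 3 and 2, 8778 of the 25540 genes (34.4%) differed at an adjusted p under 0.05 by limma, among them 16 of the 40 receptor genes, from Gabrg1 with 1.5 higher to Grin2b with -0.94 on the log2 scale. Each culture comparison was therefore fitted without and with the slide as a block, and adjusted p-values are Benjamini-Hochberg values over all genes tested. All 12 pan-neuronal markers, Tubb3 and Map2 among them, were well above background on all 8 culture arrays.

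Promoter sequence is shown for 3 genes on which the results below turn and whose windows lie outside every gene of the RefSeq table: Gabrg1 and Gabra2, neighbours in 1 cluster of GABA-A genes, and Grm3, the receptor gene whose agonist arrays all lay above the inhibitor-only arrays. Each sequence holds the 250 bases before the RefSeq start (GRCm38.p6), 5′ to 3′ on the gene's strand, with CG dinucleotides in capitals. The windows are chr5:70842618-70842867, minus strand, for Gabrg1, chr5:71095850-71096099, minus strand, for Gabra2, and chr5:9725353-9725602, minus strand, for Grm3.
Gabrg1: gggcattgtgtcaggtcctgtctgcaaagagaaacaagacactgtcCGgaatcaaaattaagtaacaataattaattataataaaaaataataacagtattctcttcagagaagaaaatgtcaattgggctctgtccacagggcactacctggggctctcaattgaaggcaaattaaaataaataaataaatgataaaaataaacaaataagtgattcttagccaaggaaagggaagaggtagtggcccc
Gabra2: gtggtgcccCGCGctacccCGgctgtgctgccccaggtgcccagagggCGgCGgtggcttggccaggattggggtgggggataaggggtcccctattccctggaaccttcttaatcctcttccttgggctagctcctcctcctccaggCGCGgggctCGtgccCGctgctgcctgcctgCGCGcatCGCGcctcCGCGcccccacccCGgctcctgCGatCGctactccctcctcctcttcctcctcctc
Grm3: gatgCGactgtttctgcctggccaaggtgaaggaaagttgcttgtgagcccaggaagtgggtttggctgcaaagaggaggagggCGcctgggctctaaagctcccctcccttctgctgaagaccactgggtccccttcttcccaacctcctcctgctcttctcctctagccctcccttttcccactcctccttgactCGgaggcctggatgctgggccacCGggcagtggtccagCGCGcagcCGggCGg
The Gabrg1 window holds 1 CG and 35.6% G or C, the Gabra2 window 18 and 70.0%, and the Grm3 window 8 and 62.4%, where the median over all 32851 windows was 6 CG and 52.4% G or C. CTTTGAT and CTTTGAA, forms of the site that TCF/LEF factors of the Wnt pathway are known to bind, were searched on both strands and are absent from these 3 windows. RefSeq windows were matched for 30 of the 45 genes (37 windows), and 3 of them (8.1%), of Gabra3 and Gabrp, hold such a match against 7.5% of all windows. The Gabra3 windows overlap and hold the same match, so it is counted more than once, and 2 genes have a match.

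**Figure D1:**
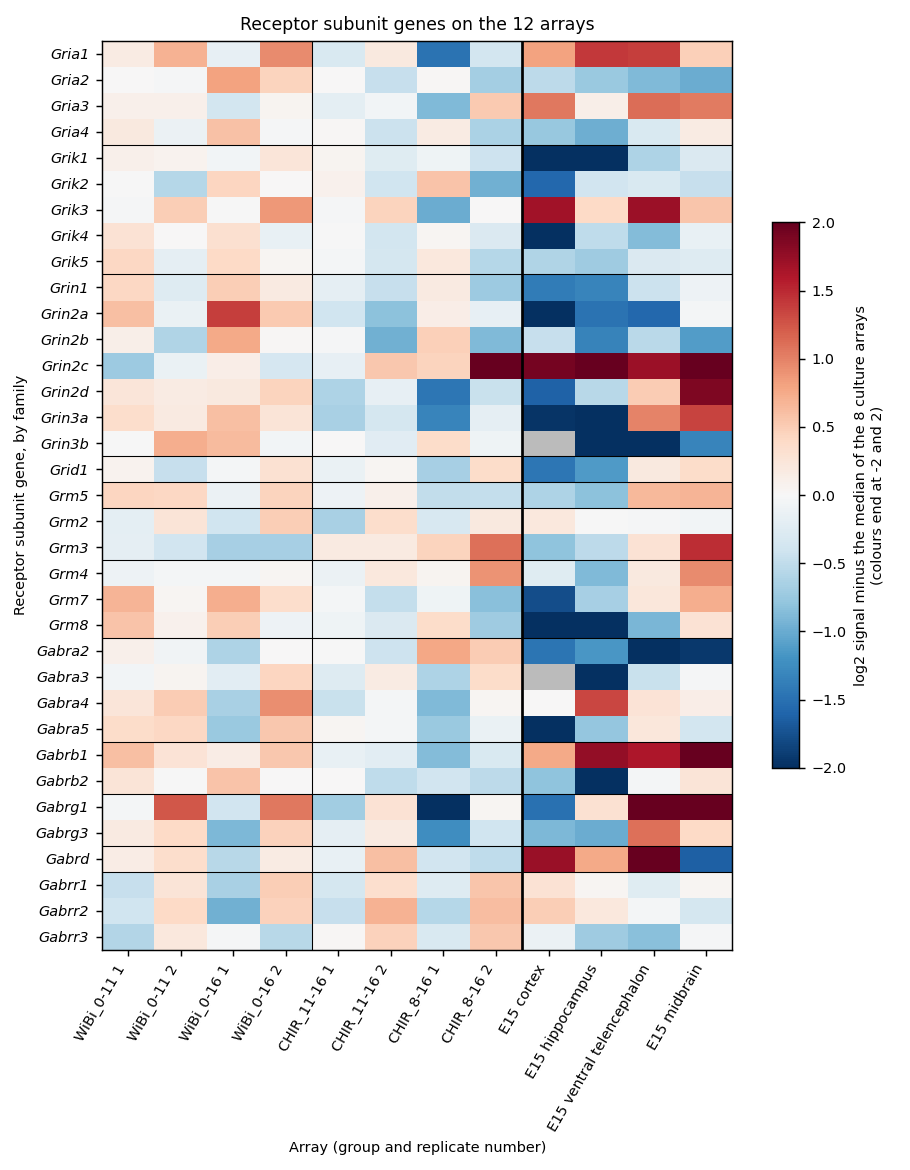
Log2 signal of 35 of the 40 tested receptor genes (rows, by family) on the 12 arrays (columns), each row relative to the median of its 8 culture arrays; grey cells are spots marked as outliers. Red is higher and blue is lower, and the 2 columns of CHIR_8-16 hold the lowest group mean of 18 of the 35 genes shown.

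The broadest comparison set the 4 arrays of cultures that received CHIR against the 4 that received inhibitors alone. The groups differ also in when the inhibitors ended, which this comparison does not separate from CHIR. Most receptor genes had a lower mean with CHIR: 31 of 40, with a median difference of -0.36 on the log2 scale, against 49.9% of all genes and a median of 0.00. Without the slide block limma called 0 of 40 receptor genes (0.00783% of all genes were called), and 12 of 40 had an unadjusted p under 0.05 (11 lower, 1 higher) against 15.3% of all genes (6.62% lower, 8.7% higher). With the slide block it called 1 of 40, Grm7, where 3.21% of all genes were called. At an unadjusted p under 0.05 with the block (22.5% of all genes) there were 18 lower (10.0% of all genes) and 2 higher (12.5% of all genes). The mean was lower for 31 of the 40 on slide 2 and for 28 on slide 3, and for 29 to 31 when any 1 of the 8 arrays was left out of the blocked fit. Background correction, quantile normalization, median scaling and the series table each gave 31 of 40, with the same number lower in every receptor family. By class, 17 of 18 ionotropic glutamate receptor genes, 4 of 7 metabotropic genes and 10 of 15 GABA-A genes had a lower mean, with medians of -0.37, -0.14 and -0.37.

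The inhibitor-only and agonist arrays did not overlap for 5 receptor genes. Gabrb1, Grin2d, Grin3a and Grm7 were lower on all 4 agonist arrays (5.57% of all genes did so) and Grm3 was higher on all 4 (6.72% of all genes). When arrays were compared only on their own slide, 15 of the 40 were lower with CHIR without overlap on both slides, against 10.5% of all genes, and Grm3 alone was higher, against 12.3%. Summed over the 12 pan-neuronal markers, the level was 8.75 to 8.92 on the agonist arrays and 9.0 to 9.1 on the inhibitor-only arrays, so it was also lower on all 4 agonist arrays; 8 of these 12 markers had a lower mean and their median difference was -0.16. In pooled RNA, fewer cells of a type and less RNA per cell cannot be told apart, and the part of the marker difference in the receptor differences was not tested.

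**Figure D2:**
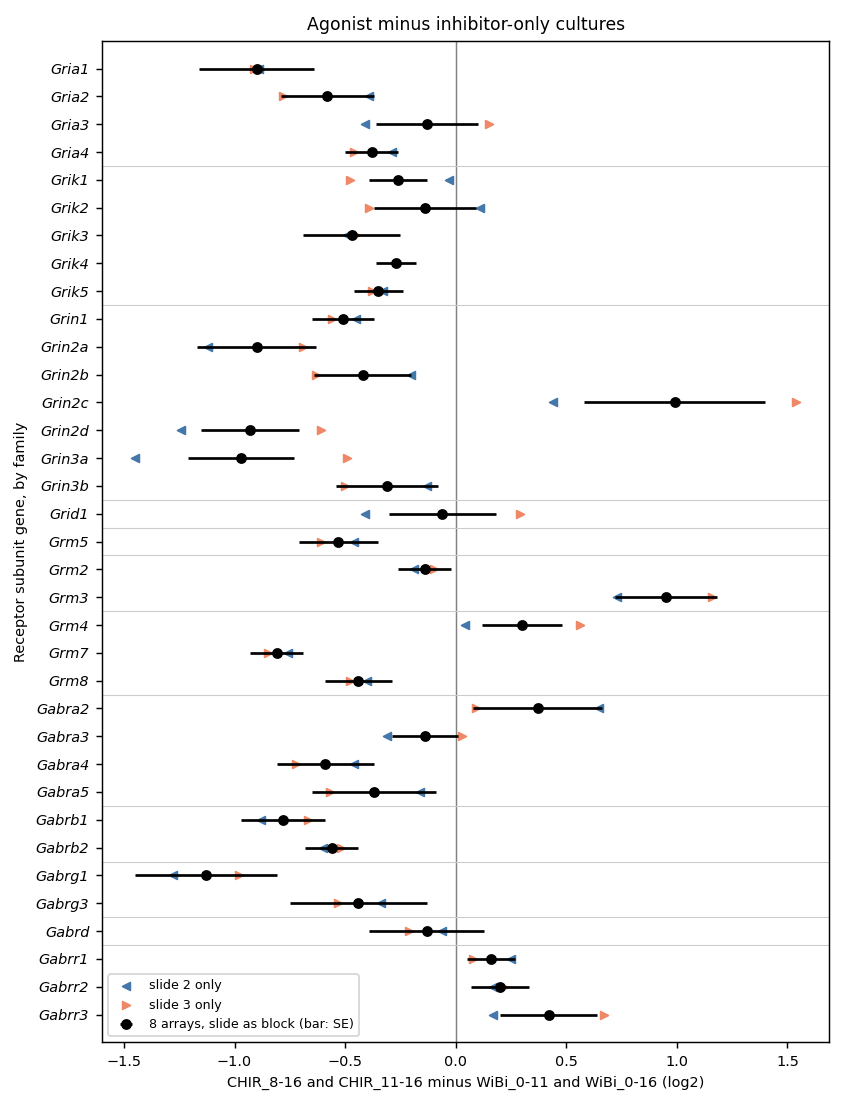
Difference in log2 signal between the 4 agonist arrays and the 4 inhibitor-only arrays for 35 of the 40 tested receptor genes, with its SE from the fit with the slide as a block (black) and the differences within slide 2 and within slide 3 (triangles). Points left of 0 are lower with CHIR, as are 28 of the 35 black points; Grm7 at -0.81 has a short SE and Grm3 and Grin2c lie farthest to the right. Gabrr3 was above background on 3 of the 8 arrays.

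Grm7, a group III metabotropic receptor that lies at presynaptic release sites, fell with CHIR in the blocked fit. Its level was 1.34 and 0.70 in WiBi_0-11, 1.39 and 1.01 in WiBi_0-16, 0.62 and 0.19 in CHIR_11-16 and 0.58 and -0.18 in CHIR_8-16 (replicates 1 and 2). The lowest inhibitor-only array lay above the highest agonist array. The difference was -0.81 ± 0.12 (SE, slide as block, n = 4 and 4 arrays; limma adjusted p = 0.039) and was close on both slides, at -0.76 on slide 2 and -0.85 on slide 3. Without the block its SE was 0.23 and its limma adjusted p was 0.151. The call was lost when any 1 array was left out of the blocked fit, where the limma adjusted p lay between 0.0715 and 0.12 and the difference between -0.72 and -0.87. It was also lost under median scaling with the block, where the difference was -0.81 and the limma adjusted p 0.0593.

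The other group III receptors with a tested probe were Grm4 and Grm8, which also act mainly as presynaptic autoreceptors. Grm8 was -0.44 ± 0.15 (SE, block) lower in mean with CHIR and below the inhibitor-only arrays within both slides, with a limma adjusted p of 0.133. Grm4 was 0.30 ± 0.18 (SE, block) in the other direction, and its highest array was replicate 2 of CHIR_8-16 at -1.20 while the other 7 lay between -2.23 and -1.89. Grm6, known from retinal ON bipolar cells, was not above background on any of the 12 arrays.

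The group II receptors couple to inhibitory G proteins, and Grm3 is made by astrocytes as well as neurons. Grm3 was -1.36 and -1.56 in WiBi_0-11, -1.84 and -1.84 in WiBi_0-16, -1.0 and -1.0 in CHIR_11-16 and -0.74 and -0.08 in CHIR_8-16. All 4 agonist arrays lay above all 4 inhibitor-only arrays, and CHIR_8-16 lay above CHIR_11-16. The difference with CHIR was 0.95 ± 0.23 (SE, block; limma adjusted p = 0.0674, and 0.116 without the block). Of the 5 astrocyte markers 3 were lower and 2 higher in mean with CHIR, S100b was called as higher in the blocked fit (3.21% of all genes were called), and their summed level overlapped, at 3.86 to 5.79 on agonist arrays and 4.27 to 5.49 on inhibitor-only arrays; their part in the Grm3 difference was not tested. Grm2, the other group II gene, differed by -0.14 ± 0.12 (SE, block).

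Of the group I receptors, which raise intracellular calcium, Grm5 was 2.44 and 2.42 in WiBi_0-11, 1.89 and 2.45 in WiBi_0-16, 1.90 and 2.11 in CHIR_11-16 and 1.52 and 1.53 in CHIR_8-16. Both CHIR_8-16 arrays lay below the other 6. Its difference between CHIR_8-16 and WiBi_0-11 was -0.90 ± 0.18 (SE, block; limma adjusted p = 0.0994).

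**Figure D3:**
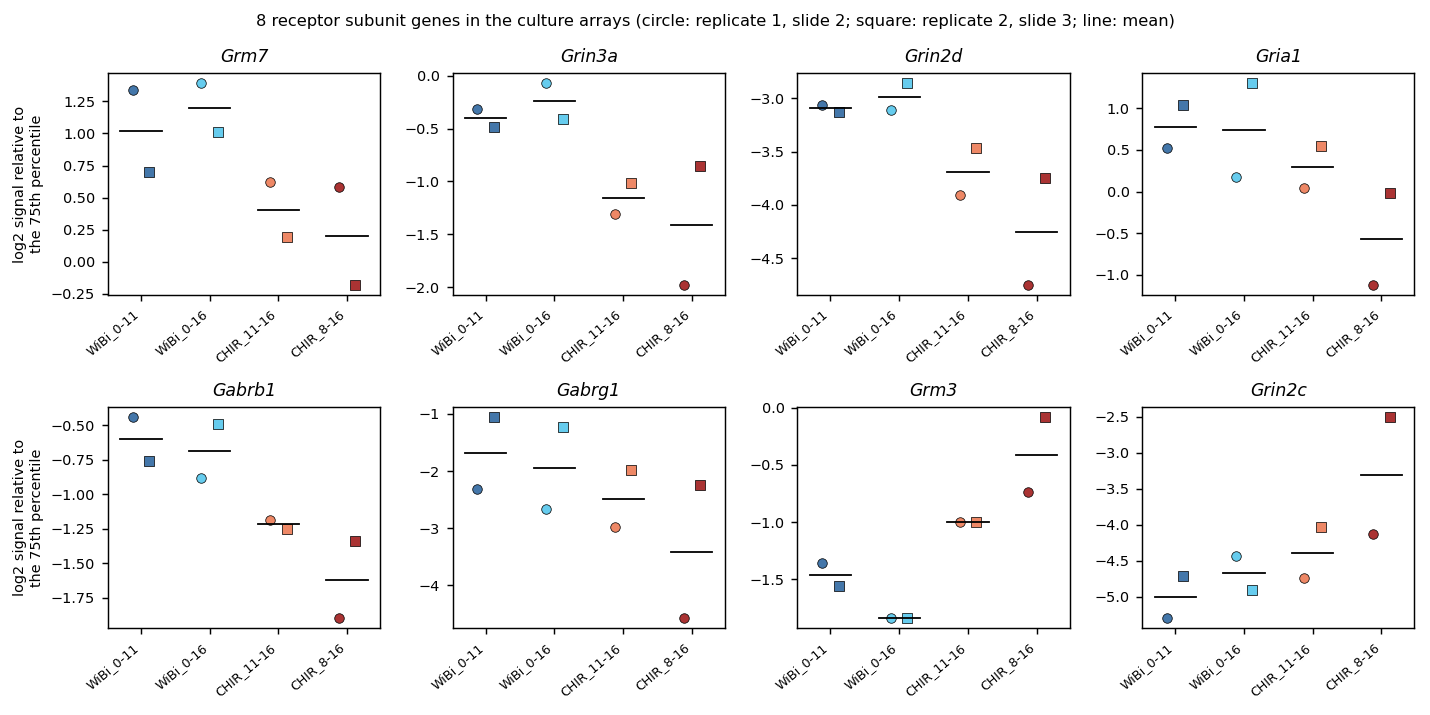
Log2 signal relative to the array's 75th percentile of 8 receptor genes in the 4 culture groups, with 1 point per array and the group mean as a line. Grm7, Grin3a, Grin2d and Gabrb1 are lower and Grm3 is higher on all 4 agonist arrays, while the arrays overlap for Gria1, Gabrg1 and Grin2c.

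AMPA receptors carry most fast excitation, and all 4 of their subunit genes had a lower mean with CHIR. Gria1 was 0.52 and 1.04 in WiBi_0-11, 0.18 and 1.30 in WiBi_0-16, 0.04 and 0.55 in CHIR_11-16 and -1.12 and -0.02 in CHIR_8-16. Both CHIR_8-16 arrays lay below the other 6, and on each slide both agonist arrays lay below both inhibitor-only arrays. Gria1 differed by -1.35 ± 0.21 (SE, block; limma adjusted p = 0.0726, and 0.509 without the block) between CHIR_8-16 and WiBi_0-11 and by -0.49 ± 0.21 between CHIR_11-16 and WiBi_0-11. Gria2, the subunit that closes the channel to calcium when its message is edited, was -0.58 ± 0.21 and Gria4 was -0.38 ± 0.12 with CHIR (SE, block). Gria3 differed by -0.29 ± 0.35 (SE, block) between CHIR_8-16 and WiBi_0-11, with -0.99 on slide 2 and 0.41 on slide 3, so its direction was not the same on both slides.

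The kainate receptor genes showed smaller differences. Grik3, Grik4 and Grik5 were lower with CHIR within both slides without overlap, by -0.47 ± 0.22, -0.27 ± 0.09 and -0.35 ± 0.11 (SE, block). Grik5 encodes a subunit that needs a partner from Grik1, Grik2 or Grik3 to form a channel. Grik1 differed by -0.26 ± 0.13 and Grik2 by -0.14 ± 0.23, and Grik2 was not lower on slide 2 (0.11). A further probe with a Grik2 accession but another name in the files differed by 0.32. For Grik3 the 2 arrays of CHIR_8-16 were -0.03 and 0.97 and those of WiBi_0-11 0.93 and 1.45.

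NMDA receptors need the obligatory subunit Grin1 with Grin2 or Grin3 subunits, and the Grin2 subunit sets how long the channel stays open. Grin1 was -0.51 ± 0.14 (SE, block) with CHIR, lower within both slides. Grin2d, a subunit of early and subcortical receptors, was -3.06 and -3.13 in WiBi_0-11, -3.11 and -2.86 in WiBi_0-16, -3.91 and -3.47 in CHIR_11-16 and -4.75 and -3.75 in CHIR_8-16, with no overlap between agonist and inhibitor-only arrays. Its difference was -0.93 ± 0.22 (SE, block; limma adjusted p = 0.0623).

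Grin3a, which lowers calcium entry and is high in the immature brain, was -0.31 and -0.48 in WiBi_0-11, -0.07 and -0.41 in WiBi_0-16, -1.31 and -1.01 in CHIR_11-16 and -1.98 and -0.85 in CHIR_8-16. The agonist arrays again lay wholly below the others, with a difference of -0.97 ± 0.24 (SE, block; limma adjusted p = 0.066) that was -1.45 on slide 2 and -0.49 on slide 3. A further probe with the accession of Grin3a but another name in the files, and so outside the choice by symbol, was -0.41 to 0.88 on the agonist arrays and 1.32 to 1.48 on the inhibitor-only arrays, a difference of -0.97. Grin3b differed by -0.31 ± 0.23.

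Grin2a and Grin2b encode the main NMDA subunits of the adult and of the embryonic forebrain. Grin2a was -2.51 and -3.24 in WiBi_0-11, -1.73 and -2.58 in WiBi_0-16, -3.50 and -3.92 in CHIR_11-16 and -2.97 and -3.27 in CHIR_8-16. Both CHIR_11-16 arrays were the lowest of the 8, and the first array of WiBi_0-16 was the highest. Over the 4 groups Grin2a had the smallest F-test p of the receptor genes, with a limma adjusted p of 0.0909 with the block and 0.545 without it; in that test 14 of 40 receptor genes had an unadjusted p under 0.05 with the block (22.9% of all genes), and limma called 0 of 40 (0.0548% of all genes). Without the block 6 of 40 passed the unadjusted threshold (8.86% of all genes) and 0 were called (0 of all genes). Grin2b was -0.42 ± 0.22 (SE, block) with CHIR.

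Grin2c, known from cerebellar granule cells and from glia, went the other way. It was -5.30 and -4.71 in WiBi_0-11, -4.44 and -4.91 in WiBi_0-16, -4.74 and -4.03 in CHIR_11-16 and -4.13 and -2.50 in CHIR_8-16. The second CHIR_8-16 array stood above all others, and agonist and inhibitor-only arrays overlapped. Its difference between CHIR_8-16 and WiBi_0-11 was 1.69 ± 0.47 (SE, block; limma adjusted p = 0.142). Of the delta receptors, orphan members of the glutamate receptor family that organise synapses, Grid1 differed by -0.06 ± 0.24 (SE, block) with CHIR.

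The beta subunits of the GABA-A receptor form the GABA-binding sites together with the alpha subunits. Gabrb1 was -0.44 and -0.76 in WiBi_0-11, -0.88 and -0.49 in WiBi_0-16, -1.19 and -1.25 in CHIR_11-16 and -1.90 and -1.34 in CHIR_8-16. The agonist arrays all lay below the inhibitor-only arrays, with a difference of -0.78 ± 0.19 (SE, block; limma adjusted p = 0.0625). Gabrb2 differed by -0.56 ± 0.12 (SE, block; limma adjusted p = 0.0552).

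The gamma subunits hold the receptor at the synapse. Gabrg1, known from amygdala, hypothalamus and glia, was -2.32 and -1.05 in WiBi_0-11, -2.67 and -1.23 in WiBi_0-16, -2.98 and -1.99 in CHIR_11-16 and -4.58 and -2.25 in CHIR_8-16. The arrays of slide 3 were higher than those of slide 2 in all 4 groups, and within each slide both agonist arrays lay below both inhibitor-only arrays. The difference between CHIR_8-16 and WiBi_0-11 was -1.73 ± 0.33 with the block and had an SE of 0.94 without it (limma adjusted p = 0.0919 and 0.644). Gabrg3 was -1.10 ± 0.30 (SE, block) in that comparison.

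The alpha subunits decide where in the cell the receptor goes and how it answers benzodiazepines. With CHIR, Gabra4, of extrasynaptic receptors, was -0.59 ± 0.22, Gabra5, high in hippocampus, -0.37 ± 0.28 and Gabra3, an embryonic form, -0.14 ± 0.15 (SE, block).

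Gabrd, the extrasynaptic delta subunit, differed by -0.70 ± 0.25 (SE, block) between CHIR_8-16 and WiBi_0-11 but by -0.13 ± 0.26 between all agonist and inhibitor-only arrays. Of the rho subunits, known from the retina, Gabrr1 and Gabrr2 differed by 0.16 ± 0.11 and 0.20 ± 0.13 with CHIR (SE, block). Gabrr3 was above background on 3 of the 8 culture arrays, both of CHIR_11-16 and the first of WiBi_0-16, so it entered the fit through CHIR_11-16 alone and no direction is given for it. The probes of Gabra6, Gabre, Gabrp and Gabrq were not bright enough in the cultures to be tested: Gabra6 and Gabre were above background on 0 culture arrays, and Gabrp and Gabrq on 1 each.

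Most mouse GABA-A genes lie in clusters. By the mm9 positions of their probes, Gabrg1, Gabra2, Gabra4 and Gabrb1 lie within 1385 kb on chromosome 5. In CHIR_8-16 against WiBi_0-11, Gabrg1, Gabra4 and Gabrb1 were -1.73, -0.80 and -1.02 while the brighter Gabra2 probe was 0.64.

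The 2 Gabra2 probes did not move together. The brighter probe was 2.68 and 2.51 in WiBi_0-11, 1.96 and 2.59 in WiBi_0-16, 2.58 and 2.17 in CHIR_11-16 and 3.36 and 3.1 in CHIR_8-16, so that CHIR_8-16 lay above the other 6 arrays. The other probe was 1.20 and 1.09, 0.22 and 1.01, 0.48 and 0.54, and 0.21 and 0.84 in the same order, so that CHIR_8-16 lay below WiBi_0-11. Their differences between CHIR_8-16 and WiBi_0-11 were 0.64 and -0.62. Both probes lie on the minus strand of chromosome 5 and overlap by 29 of their 60 bases, at chr5:71352306-71352334 (mm9), where they share the stretch below, shown because 2 probes with this much sequence in common gave opposite differences.
Gabra2 shared stretch: tcagctcacttcaatcattggaaactacc
No direction is given for Gabra2 here, since it depended on the probe. The exon or untranslated region that the probes lie in was not analysed here.

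In all, 14 tested receptor genes had several passing probes, and in CHIR_8-16 against WiBi_0-11 the sign differed between the probes of 6 of them, Gabra2, Gabra3, Grin2b and Grm5 among them. For Grm5, 2 probes 3′ in the gene, at chr7:95282581-95282640 and chr7:95279335-95279394 (mm9, plus strand), differed by -0.90 and -1.29, and the third, at chr7:94732759-94732818, by 0.03. The genes whose agonist and inhibitor-only arrays did not overlap, Gabrb1, Grin2d, Grin3a, Grm7 and Grm3, each have 1 passing probe under their own symbol. Between all agonist and inhibitor-only arrays the probes of 5 genes differed in sign, Gabra2, Gabra3, Grik2 and Grm5 among them, and in WiBi_0-16 against WiBi_0-11 those of 3, Gria2 and Gria3 among them.

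**Figure D4:**
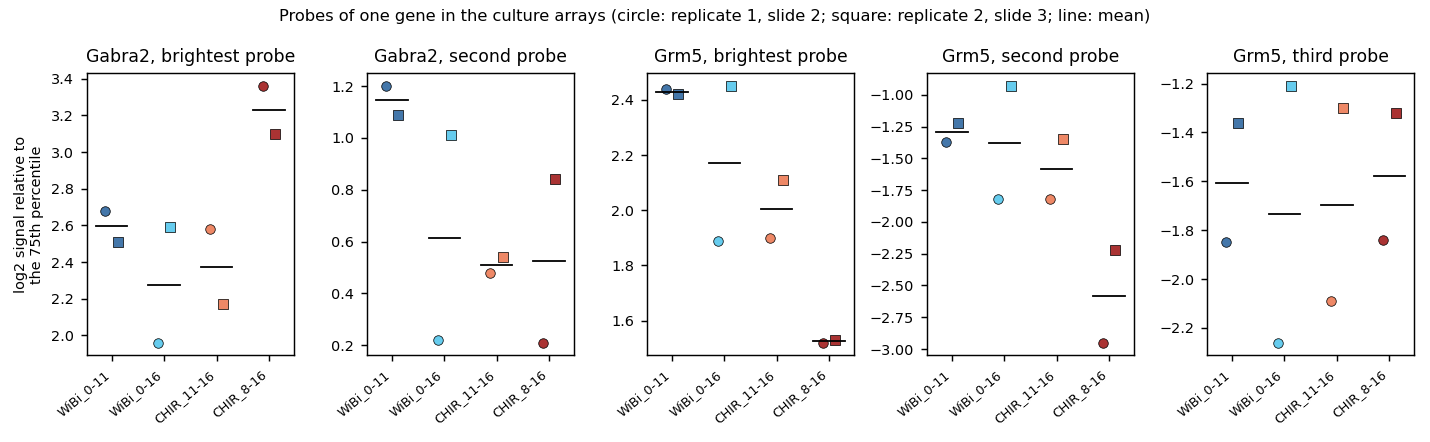
Log2 signal of the 2 passing probes of Gabra2 and the 3 of Grm5 in the 4 culture groups, with 1 point per array and the group mean as a line. The CHIR_8-16 mean is the highest for the brighter Gabra2 probe and not for the other, and it is the lowest for the first 2 Grm5 probes and not for the third.

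The start of the agonist was compared between CHIR_8-16 and CHIR_11-16. limma called 0 of 40 receptor genes without the block (0 of the 25540 genes were called) and 0 with it (0.00783% of all genes). At an unadjusted p under 0.05, 1 of 40 passed without the block (3.82% of all genes) and 10 with it (11.6% of all genes), 6 lower (4.68%) and 4 higher (6.96%) in CHIR_8-16. The blocked count was 3 without the first CHIR_11-16 array and 6 without the second. The count without the block was 4 and 5 without the first and the second CHIR_8-16 array, and 3 and 0 without the first and the second CHIR_11-16 array. The mean was lower in CHIR_8-16 for 25 of 40 (45.5% of all genes), or 30 of 40 under median scaling, which moves the median of all genes by -0.16, and the median difference was -0.09 against 0.03 for all genes. Among the largest differences were Gabrg1 at -0.93 ± 0.33 and Gria1 at -0.87 ± 0.21 (SE, block), and, in the other direction, Grin2c at 1.07 ± 0.47 and the brighter Gabra2 probe at 0.85 ± 0.27. Without the first CHIR_8-16 array, and with no block, Gabrg1 was 0.24 in this comparison.

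Each agonist group was also set against WiBi_0-11, which the 2 comparisons share. CHIR_11-16 and WiBi_0-11 both received the inhibitors to day 11. CHIR_8-16 received them to day 8, so CHIR and the earlier end of the inhibitors cannot be told apart in its comparison. For CHIR_8-16 limma called 0 of 40 receptor genes in either fit (0.0117% of all genes were called without the block and 0.309% with it), and 9 had an unadjusted p under 0.05 without the block (9.62% of all genes) and 15 with it (22.1% of all genes), with 13 lower (9.57% of all genes) and 2 higher (12.5%). Without the first WiBi_0-11 array these counts were 2 and 9. The mean was lower for 28 of 40 (44.2% of all genes), with a median of -0.31 against 0.05 for all genes; 6 were at least 2-fold lower (2.6% of all genes), Gabrb1, Gabrg1, Gabrg3, Gria1, Grin2d and Grin3a, and 2 at least 2-fold higher (3.54%), Grin2c and Grm3. Median scaling moved the median of all genes by -0.13 here, and 32 of 40 were then lower. For CHIR_11-16 limma called 0 of 40 in either fit (0.0117% of all genes with the block, 0 without it), 0 had an unadjusted p under 0.05 without the block (4.7% of all genes) and 4 with it (12.5%): Gabrb1, Grik4, Grin2a and Grm7, all lower, where 5.73% of all genes were lower and 6.74% higher. The blocked count was 2 without the first WiBi_0-11 array. The mean was lower for 31 of 40 (51.2% of all genes), with a median of -0.27, and no receptor gene was 2-fold lower (1.25% of all genes) or 2-fold higher (1.55%); the largest included Grin2a at -0.84 ± 0.18, Gabrg1 at -0.80 ± 0.33 and Grin3a at -0.76 ± 0.37, and, higher, Grin2c at 0.63 ± 0.47 and Grm3 at 0.46 ± 0.23 (SE, block).

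Keeping the inhibitors for the full 16 days gave small differences against WiBi_0-11. limma called 0 of 40 receptor genes in either fit (0.0117% of all genes with the block, 0 without it), and 0 had an unadjusted p under 0.05 without the block (2.62% of all genes) and 3 with it (10.8%; 4.63% lower, 6.19% higher): Gria2, Grin2a and Grin2b, all higher, by 0.63 ± 0.19, 0.72 ± 0.18 and 0.63 ± 0.20 (SE, block; limma adjusted p = 0.414, 0.403 and 0.43). The other passing probe of Gria2 differed by -0.04, so the Gria2 difference rests on its brighter probe. The blocked count was 7 without the second WiBi_0-16 array, 2 higher and 5 lower. The count with no block was 3 when that array was left out. The blocked count was 2 without any other 1 array of these groups, both higher without the second WiBi_0-11 array and 1 higher and 1 lower otherwise. The mean was lower for 18 of 40 (49.9% of all genes), and the count was 22 on slide 2 and 11 on slide 3, and 22 under median scaling. Gabrg3, Gabra5 and Gabrd were the lowest at -0.51 ± 0.30, -0.49 ± 0.35 and -0.45 ± 0.25. Gabra5 and Gabrg3 were lower on slide 2 only (-1.12 and -1.08, against 0.14 and 0.06 on slide 3), and without the first WiBi_0-16 array they were 0.16 and 0.17 in the fit with no block. WiBi_0-16 had the highest group mean for 18 of the 40 genes (28.8% of all genes) and CHIR_8-16 the lowest for 21 (25.4% of all genes).

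Genes that work with the receptors were read from lists, chosen like the receptors themselves with results of these arrays known. Of 30 auxiliary subunits and scaffolds of glutamate receptors limma called 0 with CHIR in either fit (3.21% of all genes were called with the block and 0.00783% without it). At an unadjusted p under 0.05 with the block 6 were lower (10.0% of all genes) and 4 higher (12.5%), 21 had a lower mean (49.9% of all genes) and the median was -0.22. Gsg1l, an AMPA receptor auxiliary subunit, was highest at 1.44 ± 0.31, with Cacng5 at 0.92 ± 0.23, and Neto1 and Cacng2 lowest at -0.57 ± 0.18 and -0.51 ± 0.13 (SE, block). Of 12 GABA-A receptor partners limma called 1 with the block (3.21% of all genes) and 0 without it (0.00783%). It was Gabarapl1, a GABARAP family protein of receptor transport and autophagy. Gabarapl1 fell by 0.59 (SE 0.11, block, with limma adjusted p = 0.0449, and 0.107 without the block). Among the 12, 8 had a lower mean with CHIR (49.9% of all genes) and 4 a higher one, and the median was -0.19. Of 16 genes of transmitter supply and uptake 14 had a lower mean with CHIR (49.9% of all genes).

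In CHIR_8-16 against WiBi_0-11, limma called 1 of the 16 genes of this last list with the block (0.309% of all genes). It was Gad1, which makes GABA, at -2.69 ± 0.28 (SE, block, with limma adjusted p = 0.0473, and 0.209 without the block). Its level was 1.13 and 1.60 in WiBi_0-11 and -1.25 and -1.40 in CHIR_8-16, but 0.82 and 1.45 in CHIR_11-16. The chloride exporter gene Slc12a5 (KCC2), which makes GABA inhibitory, was -0.59 ± 0.13 with CHIR (SE, block; limma adjusted p = 0.0564) and the importer gene Slc12a2 0.06 ± 0.12. The GABA-B receptor genes Gabbr1 and Gabbr2 were -0.21 ± 0.10 and 0.44 ± 0.33.

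Markers of other cell types were read from lists as well. The 8 pallial excitatory neuron markers had a median of 0.09 with CHIR, with 4 lower and 4 higher. None was called in either fit (3.21% of all genes with the block, 0.00783% without it). Their summed level was 5.41 to 6.06 on the agonist arrays and 5.54 to 5.91 on the inhibitor-only arrays. All 11 interneuron markers had a lower mean with CHIR (49.9% of all genes), with a median of -1.09. Sst, Npy and Calb2 were called in the blocked fit (3.21% of all genes), none without it (0.00783%). The summed level of the 11 was 3.94 to 5.57 on the agonist arrays and 5.24 to 5.69 on the inhibitor-only arrays. Against WiBi_0-11, 10 were lower in CHIR_8-16 (44.2% of all genes), with a median of -1.59. In CHIR_11-16, 7 were lower (51.2% of all genes) and 4 higher, with a median of -0.21. Of 8 oligodendrocyte-lineage markers 7 were lower, with a median of -1.28 (Olig1 and Gpr17 called in the blocked fit) and summed levels of 5.38 to 7.76 against 5.94 to 6.48. The 9 radial glia and progenitor markers had a median of 0.33, with 2 lower, and summed levels of 7.68 to 8.48 against 7.67 to 8.51. Against WiBi_0-11 their median was 0.22 in CHIR_8-16 and 0.07 in CHIR_11-16. It was -0.47 in WiBi_0-16, where all 9 were lower (49.9% of all genes). The 8 mesenchyme and neural crest markers had a median of -0.59, with 6 lower, and summed levels of 1.17 to 2.88 against 2.47 to 3.74. Against WiBi_0-11 their median was -1.61 in CHIR_8-16 and -1.23 in CHIR_11-16. It was -1.01 in WiBi_0-16, which received no CHIR and where all 8 were lower (49.9% of all genes). Their summed level was 3.7 to 3.74 in WiBi_0-11 and 2.47 to 2.53 in WiBi_0-16. The part of these markers in the receptor differences was not tested.

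In the embryo, the tissues were compared by fold only, with 1 array each. The midbrain differed most from cortex: 22 of 42 receptor genes were at least 2-fold higher there (14.4% of all genes) and 3 at least 2-fold lower (7.27%). In ventral telencephalon 17 of 41 were at least 2-fold higher than in cortex (7.47% of all genes) and 1 was lower (6.97%). Counts use the measured signals, so Gabra6, below background outside cortex, is among the lower genes of all 3 comparisons although the background allows a smaller bound for it or none. In hippocampus 8 of 41 were higher (6.3%) and 4 lower (5.4%). The denominators differ since a probe had to be above background in 1 of the 2 tissues.

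Gabrg1 differed most between embryonic tissues. It was -3.78 in cortex, -1.98 in hippocampus, 0.79 in ventral telencephalon and 1.01 in midbrain, which is 23.7-fold and 27.7-fold above cortex for the last pair. Grm8 was 7.85-fold and Grin3a 7.79-fold higher in ventral telencephalon than in cortex, and Grm8 was 18.1-fold and Grin2d 11.1-fold higher in midbrain. In the other direction, Gabrd was 10.2-fold and Grik3 2.18-fold lower in midbrain than in cortex. The brighter Gabra3 probe was -0.14 in hippocampus, 2.97 in ventral telencephalon and 3.39 in midbrain, and its cortex spot was marked as an outlier and left out.

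Between hippocampus and cortex the largest folds were 4.75 for Grik4, 3.46 for Gabrg1 and 2.54 for Grin2c, all higher in hippocampus, and 2.54 for Grin3a and 2.43 for Grik3, both lower. Grik4 encodes a kainate subunit known from the CA3 field, and the arrays read -0.85 in cortex, 1.39 in hippocampus, 1.02 in ventral telencephalon and 1.74 in midbrain. Its 8 culture arrays were 1.53 to 2.21, all above the hippocampus array. The probe of Gabra6, a gene known from cerebellar granule cells, was above background on the cortex array alone, and its cortex level was at least 1.42-fold above that of hippocampus and at least 2.25-fold above that of midbrain, taking the dimmest probe above background as the floor of the dim array.

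A set of 11 receptor genes was at least 2-fold higher in both ventral telencephalon and midbrain than in both cortex and hippocampus, a pattern looked for after the values were seen, Gabrg1, Gabrg3, Grid1, Grik1, Grin2d, Grin3a, Grm5 and Grm8 among them. That is 11 of 42, where 2.91% of all genes showed the pattern. The opposite pattern was found for 0 of the 42, against 0.859% of all genes. With normexp background correction and quantile normalization, 7 receptor genes were at least 2-fold higher in both ventral telencephalon and midbrain. The share of all genes in that setting is not given here.

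**Figure D5:**
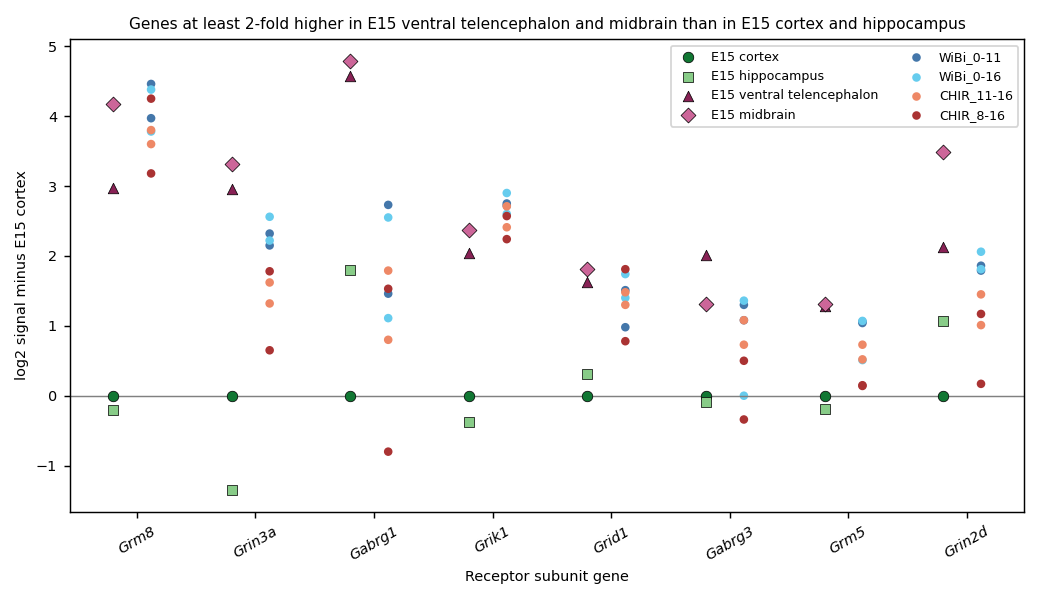
Log2 signal relative to E15 cortex of 8 of the 11 receptor genes that were at least 2-fold higher in E15 ventral telencephalon and midbrain than in E15 cortex and hippocampus; large markers are the 4 tissues (1 array each) and small points the 8 culture arrays by group. For Grm8, Grin3a, Grik1, Grid1 and Grm5 all 8 culture points lie above both cortex and hippocampus.

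For 7 of these 11 genes, Grid1, Grik1, Grin3a, Grm5 and Grm8 among them, all 8 culture arrays lay above both cortex and hippocampus. The share among all genes with the same embryonic pattern was 60.4%. Grm8 was -3.36 in cortex, -3.57 in hippocampus, -0.39 in ventral telencephalon and 0.81 in midbrain, and its cultures ranged from -0.18 to 1.10 with a median of 0.53. Grik1 was -1.95, -2.32, 0.09 and 0.42 in the same order, and 0.29 to 0.95 in cultures. For Gabrg1, in contrast, the cultures lay between -4.58 and -1.05 and 2 of 8 were above both cortex and hippocampus.

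Across all receptor genes, 17 of 42 had all 8 culture arrays above cortex and hippocampus, against 20.5% of all genes. Culture and embryo arrays did not overlap at all for 3 of 42: Gabra2 and Gabra3 with all cultures higher (12.8% of all genes) and Gabrb1 with all cultures lower (7.91%). For Gabrb1 the 8 cultures were -1.90 to -0.44 and the 4 tissues -0.28 in cortex, 0.72 in hippocampus, 0.58 in ventral telencephalon and 0.97 in midbrain. For Gabra2 the brighter probe was 1.96 to 3.36 in cultures and 0.56 to 1.42 in tissues, while the other probe overlapped, at 0.21 to 1.20 and 0.17 to 1.09. Gabra3 was read from its dimmer probe here, and the cultures of its brighter probe, 2.80 to 3.85, took in the midbrain level of 3.39. Of the blood, endothelium and microglia markers, Hba-a1 was 7.44 to 7.95 in tissues and -5.14 to -3.34 in cultures. Cldn5 was 2.51 to 3.37 in tissues and -6.45 to -4.53 in cultures, and Aif1 was -0.68 to 0.03 and -8.1 to -4.69. Kdr overlapped, at 2.56 to 3.18 and 1.88 to 3.11, as did Pecam1 and Csf1r, and the ranges of Ptprc met at -4.67. Hbb-b1, Cdh5 and Cx3cr1 had no tested probe. Cultures and embryos were on different slides and differed in stage of development, substrain, sex and cell make-up, and these cannot be told apart.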

How the data were processed

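The arrays were scanned and read with Agilent Feature Extraction (version 10.7.3.1 per the file headers; the submitters' processing notes name Agilent Feature Extraction 9.1 and limma). The deposited processed signal is a background-subtracted intensity per spot, per the file headers, and the deposited series table holds log2 values of the same arrays, whose exact processing is not given in the sources used here. Gene names and mm9 positions come from the embryo files and were joined by probe name.

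From the intensity, log2 was taken and each array's 75th percentile over unmarked spots that were not controls was subtracted, and spots of a probe were averaged. The filter kept probes that exceeded background on each replicate of 1 culture group or more and whose spots were unmarked on all 8 culture arrays, and the brightest kept probe stood for its gene. Comparisons used limma 3.58.1 (lmFit, eBayes; R 4.3.3) on the 8 culture arrays, without and with the slide as a block, with Benjamini-Hochberg adjustment and a threshold of 0.05. Arrays with the same replicate number share a slide, and their deviations from the group means correlated by 0.579 to 0.667 in the 6 pairs of groups. The fit was also run on simulated data with independent noise, which cannot show how it behaves where replicates are not independent. Leaving a culture array out can leave a group with 1 array, which is then assumed to vary like the others. No 2 arrays held identical values. The alternatives were normexp with quantile normalization (offset 50, on the median signals, as the mean signal is not in the culture files), quantile normalization, median scaling, the series table, no filter, the mean of the passing probes, a trended prior, the groups compared only, and each array left out. In addition to the genes called, the text names those with the 3 largest differences each way in each comparison, a fixed list of receptor genes, the 3 largest embryonic folds each way, and called or most different partner genes. Some genes that this rule names are not reported here, though counts over all members include them. The members and lists were chosen with earlier results of these data known. The number of arrays limits the precision, and an E15 tissue has 1 array.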

Additional observations from a re-analysis of the deposited data

Results flagged for a closer look

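For 3 receptor genes the first WiBi_0-16 array lay far from the other 3 inhibitor-only arrays, by the ratio of its gap to the nearest array to the whole range: Gabra5 was -0.25 there, with the nearest at 0.86 (ratio 0.861), Gria3 was -1.20 with the nearest at -0.78 (ratio 0.894), and Grm5 was 1.89 with the nearest at 2.42 (ratio 0.951). All 3 were lower on that array. The 4 agonist and the 4 inhibitor-only arrays of 40 genes gave 80 such groups, and chance flags about 1 in 20 of them.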

How the results depend on the processing

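With the slide as a block in place of no block, the replicate block calls 1 receptor gene (Grm7) between agonist and inhibitor-only cultures, where the fit without it calls 0, and the block changed no other count of called receptor genes. Combinations with the block were chosen after seeing the data. In the agonist comparison they called 4 receptor genes with normexp and quantile normalization (1233 of all 25540 genes) and 1 with quantile normalization (601). They called 2 with the series table (545), 7 with a trended prior (2180) and 1 with the mean of the passing probes (699). Median scaling with the block called 0. In CHIR_8-16 against WiBi_0-11 the block called 2 receptor genes with normexp and quantile normalization (451 of all genes). It called 4 there with a trended prior (1029 of all genes). Over the 4 groups it called 1 and 5 under that pair (455 and 1629 of all genes). With normexp and quantile normalization, the receptor genes at least 2-fold different from cortex numbered 7 in hippocampus (12 in the main setting) and 11 in ventral telencephalon (18), and 7 (11) were higher in both ventral telencephalon and midbrain. The cause was not tested.

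Of 49 differences of 30 named genes, 42 kept their direction in every setting run and 7 did not. Gabra3 (agonist) was 0.07 with the mean of its probes, with and without the block. Leaving out each array in turn, without and with the block, gave Gabra3 (agonist) from -0.29 to 0.04 (0.04 without CHIR_8-16 replicate 1). In WiBi_0-16 against WiBi_0-11 it gave Gabra5 from -1.14 to 0.16 (0.07 with the block), Gabrg3 from -1.19 to 0.17 and Grid1 from -0.2 to 0.84. In CHIR_8-16 against CHIR_11-16 it gave Gabrg1 from -2.09 to 0.24. Gria3 in CHIR_8-16 against WiBi_0-11 ran from -0.99 to 0.42 (also 0.04 and 0.32). In CHIR_11-16 against WiBi_0-11 Grm2 ran from -0.67 to 0.33 (also 0.01, 0.02 and 0.05). With 2 arrays a group, dim probes such as that of Gabrr3 are the least precise.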
